A study of Mus musculus with 14 samples.

Results

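The genes described here are 32 genes of monocytes and macrophages, read on 14 Clariom S mouse arrays that were hybridised with RNA of sorted regulatory T cells (Tregs, the Foxp3-expressing CD4+ T cells that restrain immune responses). They were chosen by name from a written list and make up 32 of the 21902 gene symbols on the array, each with 1 transcript cluster (the set of probes that reads 1 gene). By role they fall into 7 genes of splenic red pulp macrophages and iron handling, the 3 chains of complement C1q, 5 Fc receptor genes and their adaptors, 10 receptors for scavenging and clearance, and 7 lineage genes and other products of phagocytes.

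The study asked how loss of Atg14 in Tregs changes central and effector Tregs. Atg14 encodes a subunit of a lipid kinase complex, built around Vps34, that starts autophagy. Marrow of CD45.2+ donors was mixed in equal parts with wild-type marrow marked by CD45.1, and sublethally irradiated Rag1-/- hosts were reconstituted with it for 6 to 8 weeks. All donors of interest were C57BL/6 mice with a Foxp3-driven Cre recombinase fused to a yellow fluorescent protein. In the control group 1 Atg14 allele was flanked by loxP sites (Foxp3-Cre Atg14+/fl, labelled heterozygous), and in the group labelled KO both were (Foxp3-Cre Atg14fl/fl). The 4 groups were control central Tregs (cTregs, low in CD44 and high in CD62L, 4 arrays), KO cTregs (3 arrays), control effector Tregs (eTregs, high in CD44 and low in CD62L, 4 arrays) and KO eTregs (3 arrays). All were sorted as CD45.2+ CD4+ cells positive for the yellow reporter of Foxp3, so the CD45.1 cells of the wild-type marrow were gated out. The cells came from spleen and peripheral lymph nodes by the description of the series, and from spleen by the study's methods. The Foxp3 gene drives Cre, so the deletion is directed at Tregs and not at macrophages. Some experiments of the study used Atg14fl/fl mice that also carried Atg14+/- or Atg14-/-, by its methods. The labels do not say whether such donors were used here. The Rag1-/- hosts lack T and B cells of their own but can keep myeloid cells, beside those from the donor marrow.

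Red pulp macrophages of the spleen clear aged red blood cells, break down haem and export the iron. Their programme depends on the transcription factor Spic, whereas Spi1 (PU.1) and the receptor Csf1r set up the monocyte and macrophage lineage as a whole. Macrophages also make C1q, the first component of the classical complement pathway, and take up opsonised or dying cells through Fc receptors and receptors for phosphatidylserine.

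All values are log2 signals, compared for 1 gene between arrays and never between genes. Array medians differed by at most 0.131, and the correlation between any pair of arrays over all transcript clusters lay between 0.962 and 0.994. The medians of 23 background probe sets were 6.00 to 6.30, and on average over the control cTregs 1 of the 32 genes was no higher than that, as it was over the KO cTregs (Il18 in both). T cell and Treg genes, 12 in a list that includes Foxp3 and Cd4, averaged 12.2 to 12.4 on every array. Cd44 was higher in eTregs than in cTregs, as in the sort, by 1.61 in controls and 1.80 in the arrays labelled KO (limma adjusted P 0.000121 and 0.00036). Atg14 itself was not lower in the arrays labelled KO. Its signal was 9.16 ± 0.156 (SD, n = 3) against 8.84 ± 0.162 (n = 4) in eTregs and 9.29 ± 0.0422 (n = 3) against 8.94 ± 0.256 (n = 4) in cTregs, with an exact two-sided permutation p of 0.0857 in each, where the smallest that 35 splits allow is 0.0286. The arrays are therefore called KO by their label. The study verified the deletion by quantitative PCR in Tregs sorted from Foxp3-Cre Atg14fl/fl mice. Where the array probes lie relative to the deleted exons was not checked here. The methods give 4 control and 3 KO chimeras, but the labels tie no array to a mouse, so P values measure the spread between these arrays.

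The 32 genes were low in cTregs of both genotypes, higher in control eTregs and far apart among the 3 KO eTreg arrays. Averaged over the genes, the signal was 8.04, 8.08, 8.02 and 8.16 on the control cTreg arrays and 8.17, 8.32 and 8.25 on the KO cTreg arrays. In control eTregs it was 9.04, 9.11, 8.94 and 8.78. In KO eTregs it was 8.55 on array 1, 10.45 on array 2 and 10.47 on array 3, so that array 1 lay below all 4 control eTreg arrays and arrays 2 and 3 lay above them. The SD between arrays had a median over the 32 genes of 0.182 in control cTregs, 0.215 in KO cTregs, 0.238 in control eTregs and 1.17 in KO eTregs. Over all transcript clusters the median SD in KO eTregs was 0.173. The fit takes 1 spread per transcript cluster from all 4 groups. For genes with so wide a spread in KO eTregs, SEs, intervals and P values of comparisons with that group therefore understate the spread of its 3 arrays. Fits without KO eTreg array 1, given below, leave only arrays 2 and 3 in that group. Their P values hold nothing of the gap between those arrays and array 1. In RNA of sorted bulk cells, a different number of cells of a type and a different amount of RNA per cell cannot be told apart.

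**Figure D1:**
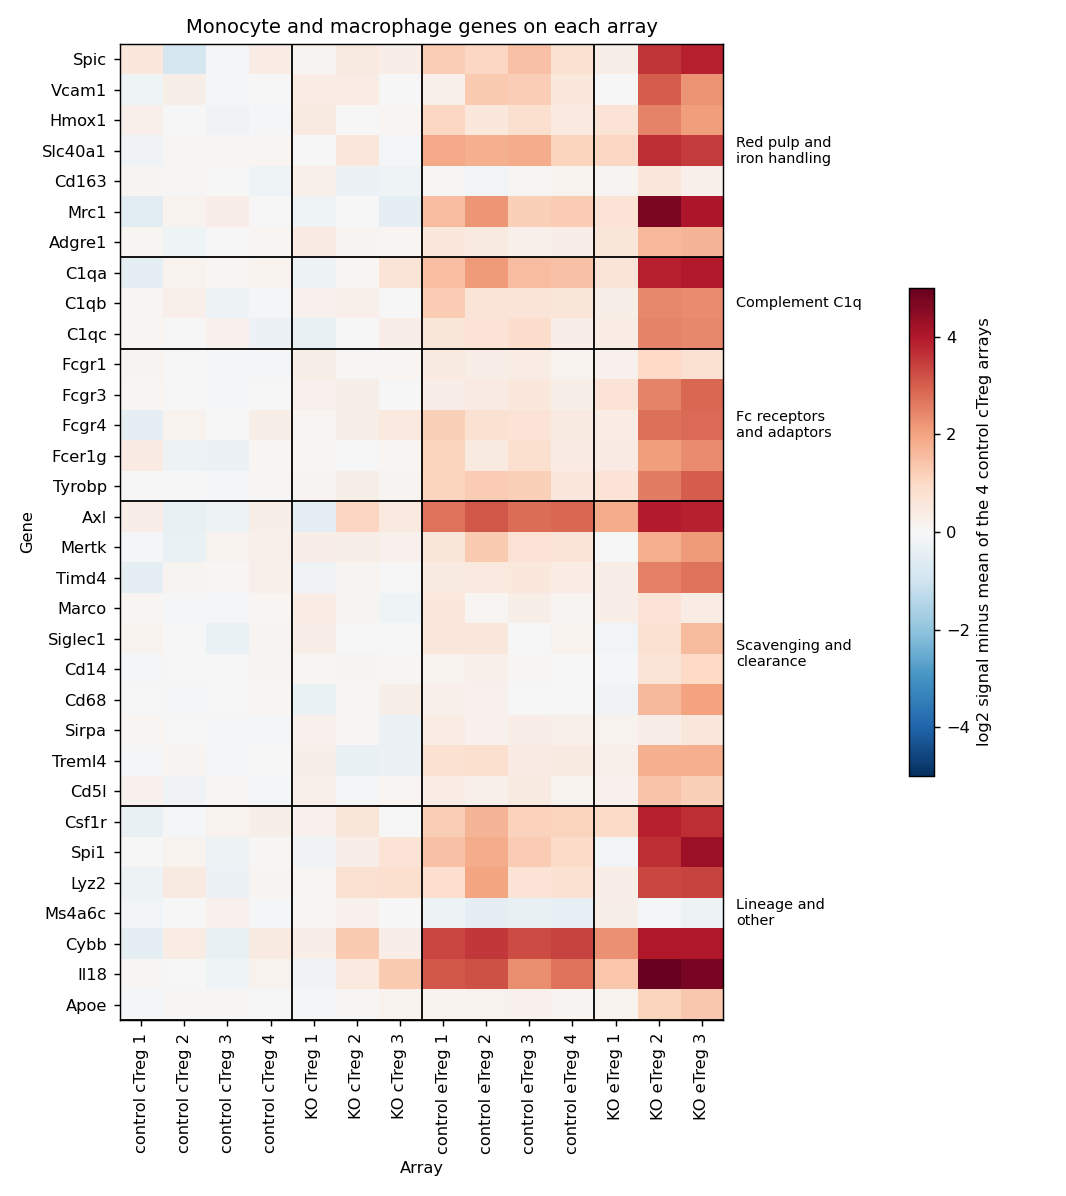
Signal of each of the 32 genes (rows, grouped by role) on each of the 14 arrays (columns), as log2 signal minus the mean of the 4 control cTreg arrays, with red for higher and blue for lower. KO eTreg arrays 2 and 3 are red in nearly every row, the 4 control eTreg arrays are a paler red in many rows, and KO eTreg array 1 is close to the cTreg arrays in most rows.

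Among the red pulp genes, Slc40a1 and Mrc1 separated eTregs from cTregs most clearly. Slc40a1 encodes ferroportin, the iron exporter. Its signal was 7.59, 7.83, 7.82 and 7.88 on the control cTreg arrays, 7.81, 8.33 and 7.73 on the KO cTreg arrays, 9.69, 9.54, 9.64 and 8.91 on the control eTreg arrays and 8.82, 11.48 and 11.26 on the KO eTreg arrays. Every eTreg array lay above every cTreg array, with KO eTreg array 1 the lowest of the eTregs. The change from cTregs to eTregs was 1.67 in controls (SE 0.407, limma adjusted P 0.03) and 2.56 in the arrays labelled KO (SE 0.47, adjusted P 0.00718), and the control change was not called without any 1 of the 4 control cTreg arrays or without control eTreg array 1, 2 or 3 (adjusted P 0.0651 to 0.0901).

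Mrc1 encodes the mannose receptor, a receptor for the uptake of glycoproteins. It read 6.02, 6.78, 6.94 and 6.63 on the control cTreg arrays, 6.39, 6.58 and 6.13 on the KO cTreg arrays, 8.15, 8.80, 7.79 and 7.86 on the control eTreg arrays and 7.29, 11.29 and 10.64 on the KO eTreg arrays. The lowest eTreg array, KO eTreg 1 at 7.29, still lay above the highest cTreg array. Mrc1 rose by 3.38 in eTregs over cTregs in the arrays labelled KO (SE 0.672, adjusted P 0.0125), whereas the difference of 1.56 in controls (SE 0.582, adjusted P 0.215) did not pass. The KO change was not called without KO cTreg array 1 or 3 or KO eTreg array 2 or 3 (adjusted P 0.0503 to 0.0789), and the control difference passed without KO eTreg array 1 (adjusted P 0.000457).

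Adgre1 encodes an adhesion receptor that is widely used to mark mouse macrophages. It read 8.33, 8.02, 8.22 and 8.33 on the control cTreg arrays, 8.63, 8.36 and 8.33 on the KO cTreg arrays, 8.75, 8.67, 8.50 and 8.56 on the control eTreg arrays and 8.84, 9.89 and 9.91 on the KO eTreg arrays. All 3 KO eTreg arrays lay above all 4 control eTreg arrays, array 1 by the smallest margin. Adgre1 rose by 1.1 from cTregs to eTregs in the arrays labelled KO (SE 0.214, adjusted P 0.0108), a call that was lost without KO cTreg array 3 or KO eTreg array 2 or 3 (adjusted P 0.0526 to 0.0719). Between KO and control eTregs it differed by 0.93 (SE 0.201, adjusted P 0.11).

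Hmox1, the haem oxygenase that frees iron from haem, rose by 1.56 in KO eTregs over KO cTregs (adjusted P 0.0152), but not without KO cTreg array 2 or 3 or KO eTreg array 2 or 3 (adjusted P 0.0627 to 0.0889). Spic, the transcription factor of red pulp macrophages, lay at 5.62 to 6.98 on the 7 cTreg arrays, 7.21 to 7.92 in control eTregs, and 6.77, 10.04 and 10.32 in KO eTregs. Its differences of 1.13 in controls (adjusted P 0.417) and 2.28 in the arrays labelled KO (adjusted P 0.0764) did not pass, and both did without KO eTreg array 1 (adjusted P 0.00769 and 1.65e-06). Vcam1, an adhesion molecule of red pulp macrophages and stroma, was at 7.44, 10.47 and 9.71 in KO eTregs against 7.71 to 8.76 in control eTregs. Cd163, the scavenger receptor for haemoglobin, stayed between 7.36 and 8.20 on all 14 arrays, with differences of 0.04 and 0.40 between the subsets.

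The C1q genes C1qb, C1qc and C1qa encode the 3 chains of 1 protein and follow one another on chromosome 4 in the RefSeq gene order of the assembly GRCm38.p6. C1qa read 7.76, 8.37, 8.30 and 8.39 on the control cTreg arrays, 7.95, 8.30 and 8.84 on the KO cTreg arrays, 9.71, 10.32, 9.74 and 9.66 on the control eTreg arrays and 8.84, 12.10 and 12.18 on the KO eTreg arrays. The eTreg and cTreg arrays did not overlap within either genotype, but KO eTreg 1 equalled the highest KO cTreg array to 2 decimals. C1qa rose by 2.68 in the arrays labelled KO (SE 0.598, adjusted P 0.0252), a call lost without any 1 of the 3 KO cTreg arrays or without KO eTreg array 2 or 3 (adjusted P 0.0521 to 0.137). In controls the difference was 1.66 (SE 0.518, adjusted P 0.111), and it passed without KO eTreg array 1 (adjusted P 5.44e-05).

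C1qb read 8.88, 9.03, 8.51 and 8.70 on the control cTreg arrays, 9.0, 9.05 and 8.79 on the KO cTreg arrays, 10.05, 9.42, 9.41 and 9.38 on the control eTreg arrays and 9.07, 11.19 and 11.14 on the KO eTreg arrays. Its subset differences were 0.79 in controls (adjusted P 0.324) and 1.52 in the arrays labelled KO (adjusted P 0.0539), and both passed without KO eTreg array 1 (adjusted P 0.00403 and 1.53e-06). C1qc read 7.90, 7.83, 8.02 and 7.50 on the control cTreg arrays, 7.46, 7.81 and 8.16 on the KO cTreg arrays, 8.41, 8.51, 8.70 and 8.15 on the control eTreg arrays and 8.17, 10.29 and 10.23 on the KO eTreg arrays. For both genes KO eTreg arrays 2 and 3 were the highest of all 14 and KO eTreg array 1 lay only just above the highest KO cTreg array. C1qc rose by 1.76 in the arrays labelled KO (SE 0.393, adjusted P 0.0253), but not without KO cTreg array 1 or 2 or KO eTreg array 2 or 3 (adjusted P 0.0748 to 0.139). Its difference of 0.63 in controls (adjusted P 0.49) did not pass, and it did without KO eTreg array 1 (adjusted P 0.024). Between KO and control eTregs the 3 chains differed by 1.18, 0.90 and 1.12 for C1qa, C1qb and C1qc (adjusted P 0.624, 0.523 and 0.355), and each of these passed without KO eTreg array 1 (adjusted P 2.32e-05, 6.07e-05 and 2.51e-05).

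The upstream sequences of 4 of the genes are shown as examples from 3 roles, chosen among the 12 genes whose upstream bases hold the 6 letters GAGGAA or, on the other strand, TTCCTC, in which the GGAA core bound by Ets family factors such as PU.1 lies. They are the 250 bases before the RefSeq start, GRCm38.p6, 5′ to 3′ along the gene, with the 6 letters in capitals. Mrc1 is at chr2:14229164-14229413 (plus strand), C1qb at chr4:136886201-136886450 and C1qc at chr4:136892915-136893164 (both minus strand), and Fcgr4 at chr1:171018676-171018925 (plus strand).
Mrc1: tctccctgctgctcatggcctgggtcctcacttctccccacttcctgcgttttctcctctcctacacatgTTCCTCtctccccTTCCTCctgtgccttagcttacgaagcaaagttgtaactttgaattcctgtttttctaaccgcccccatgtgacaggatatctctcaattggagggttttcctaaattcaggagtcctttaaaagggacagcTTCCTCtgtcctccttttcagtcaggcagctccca
C1qb: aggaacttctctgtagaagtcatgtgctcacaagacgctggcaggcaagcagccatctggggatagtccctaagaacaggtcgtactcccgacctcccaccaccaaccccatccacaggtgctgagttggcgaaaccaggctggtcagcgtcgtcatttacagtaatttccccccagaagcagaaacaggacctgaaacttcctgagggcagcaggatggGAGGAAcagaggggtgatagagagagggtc
C1qc: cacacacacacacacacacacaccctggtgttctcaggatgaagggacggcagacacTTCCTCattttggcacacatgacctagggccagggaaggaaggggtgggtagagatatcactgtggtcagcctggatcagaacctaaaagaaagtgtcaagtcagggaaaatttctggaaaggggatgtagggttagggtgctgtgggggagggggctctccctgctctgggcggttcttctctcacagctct
Fcgr4: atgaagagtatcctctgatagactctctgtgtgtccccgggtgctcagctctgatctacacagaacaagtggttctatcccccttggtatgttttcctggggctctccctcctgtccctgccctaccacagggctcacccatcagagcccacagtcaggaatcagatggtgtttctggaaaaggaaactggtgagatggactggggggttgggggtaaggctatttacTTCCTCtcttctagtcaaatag
Counted back from the start, the first letter of the motif lay at -180, -167 and -35 in Mrc1, at -30 in C1qb, at -193 in C1qc and at -22 in Fcgr4. Of the 32 genes, 21 were in the RefSeq promoter table and 12 of those 21 (57.1%) held GAGGAA or TTCCTC in these bases, against 6986 of all 27025 genes in the table (25.9%). The longer GAGGAAGT or ACTTCCTC, which contains it, was in 2 of 21 (9.52%) against 755 of 27025 (2.79%). Marco, whose level followed that of the 32 genes little, held the 6 letters too, whereas 9 of the 21 did not, among them Spic, Timd4, Lyz2 and Il18. A match of letters is a description and not a binding site.

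Of the Fc receptor genes, Fcgr3 differed most between the genotypes in eTregs. It encodes a low-affinity activating receptor for IgG. Fcgr3 read 8.80, 8.69, 8.60 and 8.69 on the control cTreg arrays, 8.92, 8.99 and 8.73 on the KO cTreg arrays, 9.02, 9.12, 9.21 and 9.0 on the control eTreg arrays and 9.40, 11.17 and 11.59 on the KO eTreg arrays. All 3 KO eTreg arrays exceeded all 4 control eTreg arrays, array 1 by a small margin and the other two by a wide one. KO and control eTregs differed by 1.63, a 3.1-fold difference (SE 0.332, 95% interval 0.93 to 2.34), with a limma adjusted P of 0.0827, and the difference passed without KO eTreg array 1 (adjusted P 3.07e-07). From cTregs to eTregs Fcgr3 rose by 1.84 in the arrays labelled KO (adjusted P 0.0103), but not without KO cTreg array 3 or KO eTreg array 2 or 3 (adjusted P 0.0509 to 0.0618), and it differed by 0.39 in controls (adjusted P 0.738).

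Fcer1g and Tyrobp encode the signalling adaptors that carry the activating motifs for Fc receptors and related receptors. Fcer1g rose by 1.54 (adjusted P 0.035) and Tyrobp by 1.90 (adjusted P 0.0156) in KO eTregs over KO cTregs. Neither was called without KO eTreg array 2 or 3 or without KO cTreg array 1 or 3, and Fcer1g was also not called without KO cTreg array 2 (adjusted P 0.0958 to 0.183 for Fcer1g and 0.0599 to 0.0865 for Tyrobp). Fcgr4, an activating receptor for IgG2 whose gene neighbours Fcgr3 on chromosome 1, lay at 6.78, 9.15 and 9.23 in KO eTregs against 6.83 to 7.59 in control eTregs, and its subset difference of 1.70 in the arrays labelled KO (adjusted P 0.0603) passed without KO eTreg array 1 (adjusted P 1.46e-06). Fcgr1, the high-affinity receptor for IgG, differed by 0.34 and 0.51 between the subsets in controls and in the arrays labelled KO, and lay between 8.73 and 9.82 on all arrays. Fc receptors are a family of similar genes, and probes were not checked against one another here.

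Among the clearance receptors, Axl was the only one called between the subsets in controls. Axl is a receptor tyrosine kinase that binds phosphatidylserine on dying cells through the bridging protein Gas6. It read 9.06, 8.34, 8.47 and 9.02 on the control cTreg arrays, 8.28, 9.79 and 9.22 on the KO cTreg arrays, 11.43, 11.83, 11.52 and 11.60 on the control eTreg arrays and 10.58, 12.66 and 12.59 on the KO eTreg arrays. All 7 eTreg arrays lay above all 7 cTreg arrays, and within eTregs KO array 1 lay below the controls and KO arrays 2 and 3 above them. Axl rose by 2.87 in controls (7.32-fold, SE 0.384, adjusted P 0.00031) and by 2.85 in the arrays labelled KO (7.19-fold, SE 0.443, adjusted P 0.00224), and both calls held without any single array. KO and control eTregs differed by 0.35 (95% interval -0.53 to 1.23, adjusted P 0.892), and by 1.03 without KO eTreg array 1 (adjusted P 0.114).

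Timd4 encodes Tim-4, a receptor for phosphatidylserine on resident macrophages. It read 7.07, 7.64, 7.58 and 7.76 on the control cTreg arrays, 7.32, 7.65 and 7.52 on the KO cTreg arrays, 7.97, 8.02, 8.03 and 7.88 on the control eTreg arrays and 7.83, 10.02 and 10.24 on the KO eTreg arrays. KO eTreg array 1 lay just below the 4 control eTreg arrays, and arrays 2 and 3 far above them. Timd4 rose by 1.87 in the arrays labelled KO (SE 0.417, adjusted P 0.0253), a call lost without any 1 of the KO cTreg arrays or without KO eTreg array 2 or 3 (adjusted P 0.0623 to 0.137), and it differed by 0.46 in controls (adjusted P 0.735).

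Treml4, a receptor of the TREM family on splenic macrophages, rose by 1.40 in the arrays labelled KO (adjusted P 0.023), but not without KO cTreg array 2 or 3 or KO eTreg array 2 or 3 (adjusted P 0.0899 to 0.133). Cd68, a glycoprotein of late endosomes, was at 9.36, 11.16 and 11.55 in KO eTregs and at 9.23 to 9.85 on all 11 other arrays. Mertk, a relative of Axl, was at 7.38, 9.20 and 9.53 in KO eTregs against 8.00 to 8.69 in control eTregs, and Cd5l, a protein secreted by tissue macrophages, at 8.02, 9.25 and 8.99 against 7.97 to 8.26. For these 3 genes array 1 thus lay within the control range or below it. Siglec1 (a sialic acid receptor), Marco (a scavenger receptor), Cd14 (the lipopolysaccharide co-receptor) and Sirpa (the receptor for CD47) had the smallest subset differences of the clearance receptors in the arrays labelled KO, between 0.36 and 0.62. Sirpa differed by 0.08 between KO and control eTregs, with a 95% interval of -0.19 to 0.34.

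**Figure D2:**
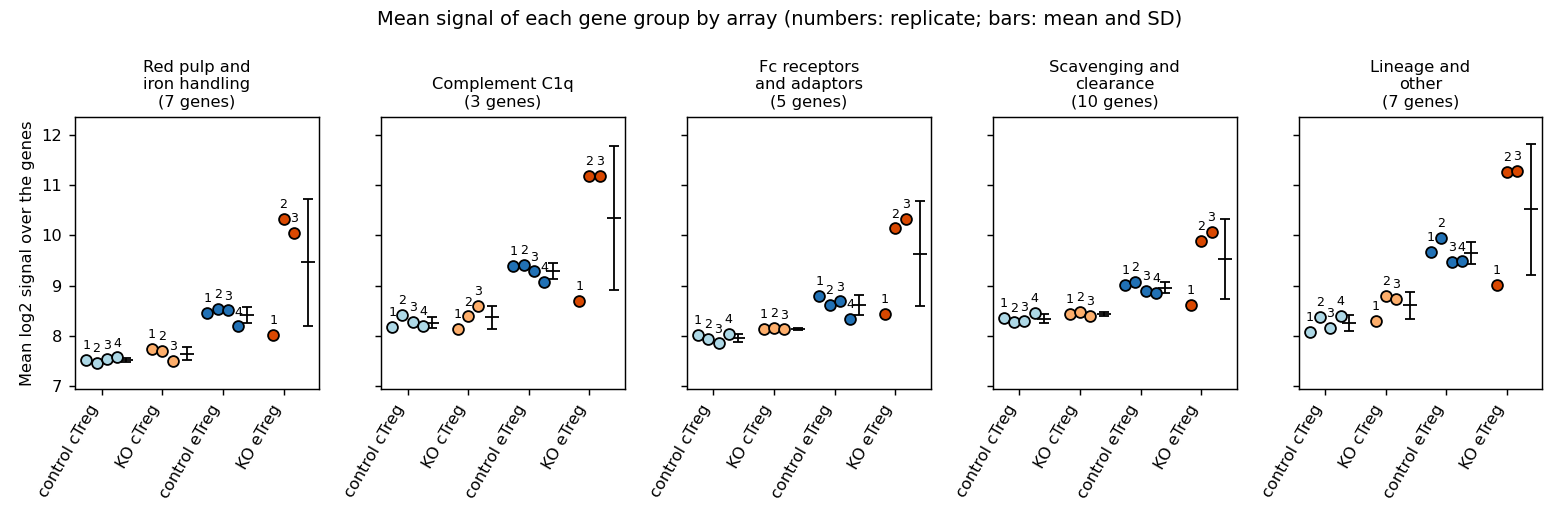
Mean log2 signal over the genes of each role (vertical axis) on each array, by group (horizontal axis), with the replicate number beside each point and the group mean and SD as a bar at its right. In all 5 roles KO eTreg array 1 is below the mean of the control eTregs and arrays 2 and 3 are above every other array.

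Of the lineage genes, Csf1r encodes the receptor for the growth factor CSF1, on which most macrophages depend. It read 7.65, 7.93, 8.18 and 8.29 on the control cTreg arrays, 8.22, 8.62 and 8.04 on the KO cTreg arrays, 9.24, 9.70, 9.18 and 9.12 on the control eTreg arrays and 8.99, 11.90 and 11.69 on the KO eTreg arrays. Each eTreg array exceeded each cTreg array. Csf1r rose by 2.57 in the arrays labelled KO (SE 0.509, adjusted P 0.0123), a call lost without KO cTreg array 1 or 3 or KO eTreg array 2 or 3 (adjusted P 0.0532 to 0.0787), and the difference of 1.30 in controls (adjusted P 0.156) passed without KO eTreg array 1 (adjusted P 0.000119). Spi1, which encodes PU.1, was at 7.26, 11.09 and 11.67 in KO eTregs against 8.34 to 9.22 in control eTregs and 7.13 to 8.07 in the 7 cTreg arrays, so that KO eTreg array 1 fell among the cTregs.

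Lyz2 encodes lysozyme of phagocytes. It read 8.02, 8.73, 7.97 and 8.42 on the control cTreg arrays, 8.37, 9.04 and 9.08 on the KO cTreg arrays, 9.14, 10.26, 8.98 and 9.03 on the control eTreg arrays and 8.60, 11.62 and 11.67 on the KO eTreg arrays. KO eTreg array 1 was again within the range of the KO cTregs. The subset differences of Lyz2, 1.07 in controls (adjusted P 0.402) and 1.80 in the arrays labelled KO (adjusted P 0.144), did not pass, and both did without KO eTreg array 1 (adjusted P 0.0205 and 3.02e-05).

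Cybb encodes gp91phox, the catalytic subunit of the phagocyte NADPH oxidase. It read 6.91, 7.72, 6.97 and 7.81 on the control cTreg arrays, 7.67, 8.67 and 7.67 on the KO cTreg arrays, 10.71, 10.90, 10.63 and 10.71 on the control eTreg arrays and 9.62, 11.34 and 11.37 on the KO eTreg arrays. Every eTreg array lay above every cTreg array, with KO eTreg array 1 below the control eTregs and arrays 2 and 3 above them. Cybb rose by 3.39 in controls (10.4-fold, SE 0.337, adjusted P 2.16e-05) and by 2.77 in the arrays labelled KO (6.84-fold, SE 0.39, adjusted P 0.001), and both calls held without any single array. KO and control eTregs differed by 0.04 (95% interval -0.73 to 0.81), and by 0.62 without KO eTreg array 1 (adjusted P 0.353).

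Il18 encodes a cytokine released after cleavage by inflammasomes. It read 5.75, 5.68, 5.50 and 5.90 on the control cTreg arrays, 5.53, 6.19 and 7.02 on the KO cTreg arrays, 8.80, 8.90, 8.05 and 8.43 on the control eTreg arrays and 7.09, 10.94 and 10.47 on the KO eTreg arrays. KO eTreg array 1 only just exceeded KO cTreg array 3, and the other eTreg arrays lay well above the cTregs. Il18 rose by 2.84 in controls (SE 0.584, adjusted P 0.00974), a call that held without any single array. All 4 control cTreg signals lay below the background median of their own array, so only a bound can be given, at least 5.32-fold with each raised to that median. It rose by 3.26 in the arrays labelled KO (SE 0.674, adjusted P 0.016), where 2 of the 3 KO cTreg signals lay below background and no fold is given. That call was lost without KO cTreg array 1 or 2 or KO eTreg array 2 or 3 (adjusted P 0.0554 to 0.0979).

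Apoe encodes apolipoprotein E, a lipid carrier that macrophages secrete. It read 10.12, 10.24, 10.26 and 10.18 on the control cTreg arrays, 10.12, 10.26 and 10.38 on the KO cTreg arrays, 10.36, 10.36, 10.42 and 10.32 on the control eTreg arrays and 10.38, 11.30 and 11.53 on the KO eTreg arrays. On 12 of the arrays it lay within 10.12 to 10.42, and KO eTreg arrays 2 and 3 were higher. Its rise of 0.82 in KO eTregs over KO cTregs (SE 0.203, adjusted P 0.0449) was close to the threshold and was lost when any array other than KO eTreg 1 was left out (adjusted P 0.0538 to 0.219), as it was with array medians subtracted (adjusted P 0.0663).

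Ms4a6c, a membrane protein of the MS4A family expressed in monocytes, went the other way. It read 10.70, 10.80, 11.05 and 10.75 on the control cTreg arrays, 10.88, 11.03 and 10.86 on the KO cTreg arrays, 10.59, 10.35, 10.46 and 10.42 on the control eTreg arrays and 11.13, 10.72 and 10.57 on the KO eTreg arrays. The 4 control eTreg arrays lay below all 4 control cTreg arrays, and the difference of -0.37 did not pass (adjusted P 0.135). In the arrays labelled KO the subsets overlapped, with a difference of -0.12.

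Set side by side, 31 of the 32 genes were higher on average in control eTregs than in control cTregs, and 4 of them passed the threshold of an absolute log2 change of 0.5 with an adjusted P below 0.05. These were Cybb, Axl, Il18 and Slc40a1. None of the 32 passed in the lower direction. Of all 22203 transcript clusters tested, 2.14% were called higher and 0.919% lower in this comparison. The control eTreg arrays all exceeded the control cTreg arrays for 23 of the 32 genes, against 6.12% of all transcript clusters. The median change of the 32 genes was 0.70 and that of all transcript clusters 0.00. At the study's threshold, taken here in its form with the unadjusted P, 14 of the 32 genes were higher, against 3.3% of all transcript clusters. The count of 4 rested on the spread of KO eTregs, which enter the fit although they are not compared. It was 19 without KO eTreg array 1 (2.8% of all transcript clusters called higher) and 18 in a fit of the control arrays alone (2.91%). It was 3 without any 1 of the arrays on which the call of Slc40a1 rests, named above.

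In the arrays labelled KO, 31 of the 32 genes were higher in eTregs than in cTregs and 16 passed, against 2.02% of all transcript clusters called higher and 0.329% called lower. The 16 comprised the 4 genes above with Mrc1, Hmox1, Adgre1, C1qa, C1qc, Fcgr3, Fcer1g, Tyrobp, Timd4, Treml4, Csf1r and Apoe. By role they were 4 of 7 red pulp genes, 2 of 3 C1q chains, 3 of 5 Fc receptor genes and adaptors, 3 of 10 clearance receptors and 4 of 7 lineage and other genes. The arrays of the subsets did not overlap for 15 of the 32 genes, against 6.46% of all transcript clusters. The median change was 1.55, and -0.04 over all transcript clusters. Single arrays moved this count more than any setting of the scale. It was 28 without KO eTreg array 1 (4.48% of all transcript clusters called higher) and 3 without KO eTreg array 2 (1.0%) or array 3 (0.91%). It was 7, 8 and 5 without KO cTreg array 1, 2 and 3 (1.13%, 1.51% and 1.18%). A fit of the 6 arrays labelled KO alone called 1 (Cybb), against 0.54% of all transcript clusters called higher.

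**Figure D3:**
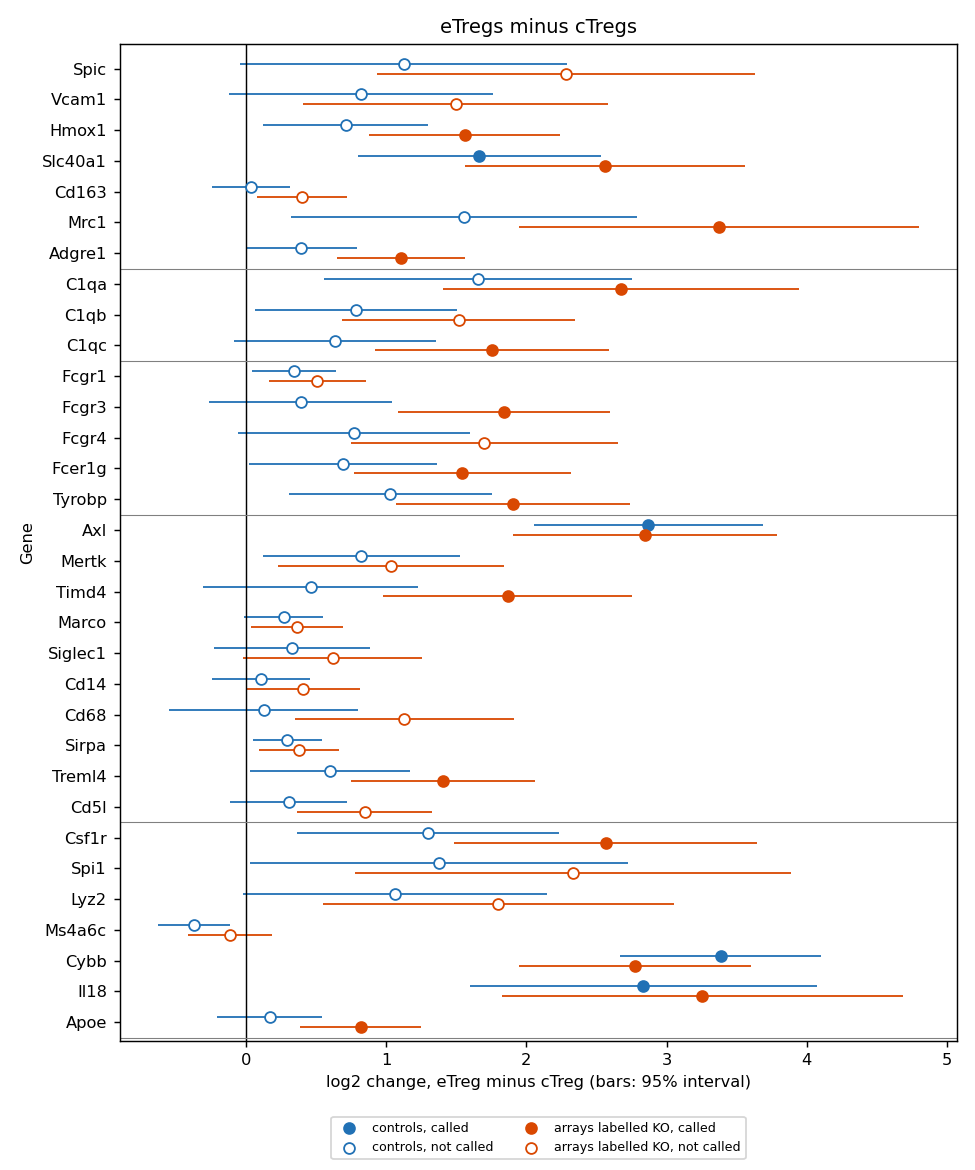
Change of each gene from cTregs to eTregs (horizontal axis, log2) in controls (blue) and in the arrays labelled KO (orange), with 95% intervals from the fit and filled points for those that passed the threshold. In controls 4 points are filled and in the arrays labelled KO 16, and Ms4a6c lies left of 0 in both.

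Between the genotypes in eTregs, all 32 genes had a higher mean in the arrays labelled KO, but none passed by limma, where 0.0721% of all transcript clusters were called higher. The smallest adjusted P was 0.0827, for Fcgr3. At an unadjusted P below 0.05, 20 of the 32 differed, and 18 also had a change of 0.5 or more, against 1.9% of all transcript clusters that did so in this direction. Only Fcgr3 and Adgre1 had no overlap between the 3 KO and the 4 control arrays, 2 of 32 genes against 3.01% of all transcript clusters. The median difference was 0.93, and -0.02 over all transcript clusters. By role the median was 1.04 for red pulp genes, 1.12 for C1q, 1.06 for Fc receptor genes and adaptors, 0.45 for clearance receptors and 0.96 for lineage and other genes. Without KO eTreg array 1, which leaves only arrays 2 and 3 in the group, 25 of the 32 genes passed (1.77% of all transcript clusters called higher). The median difference was then 1.59. Without KO eTreg array 2 none passed and 6 met the study's threshold (1.42% of all transcript clusters in this direction). The same counts came without array 3 (1.55%). The 7 genes that still did not pass without array 1 were Cd163, Axl, Marco, Siglec1, Sirpa, Ms4a6c and Cybb.

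**Figure D4:**
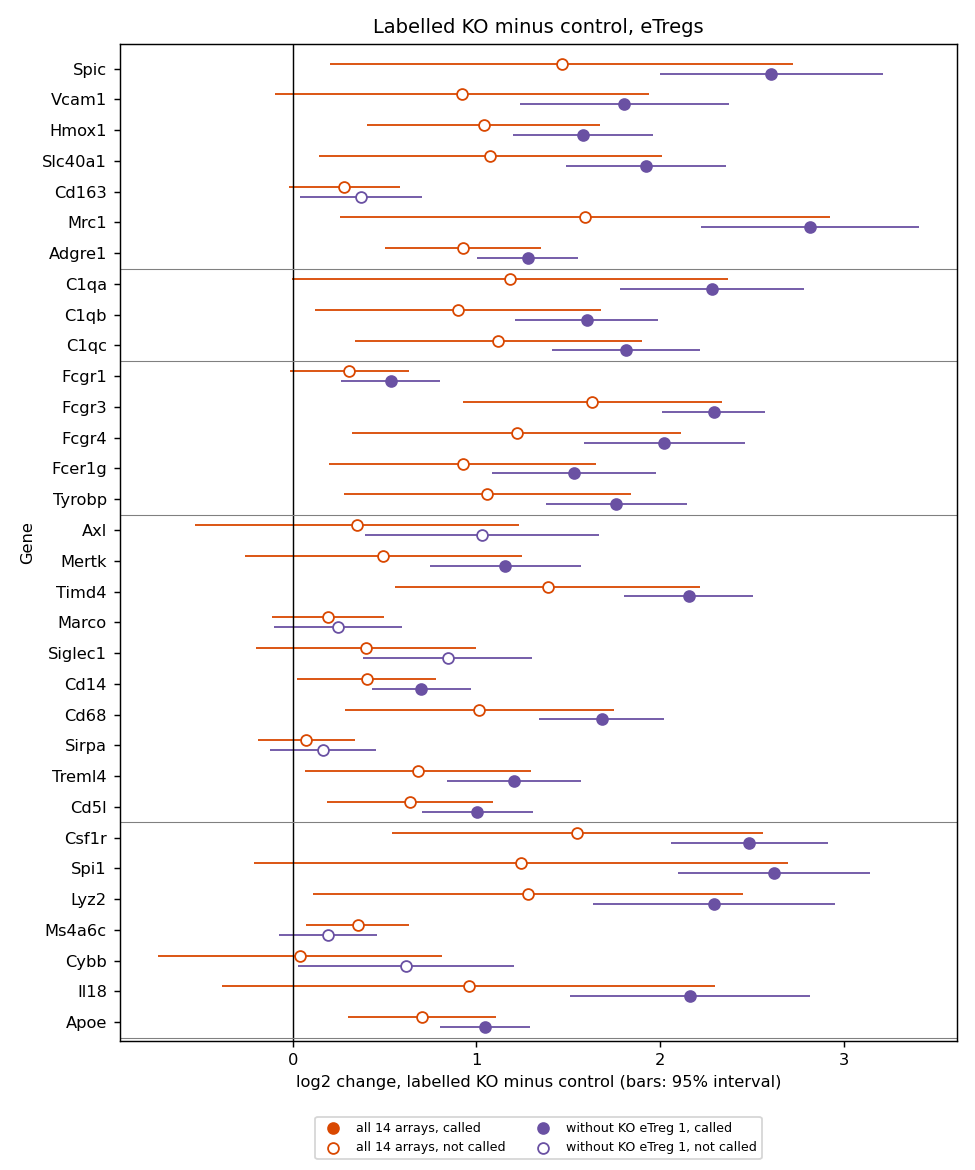
Difference between KO and control eTregs for each gene (horizontal axis, log2) with 95% intervals, from the fit of all 14 arrays (orange) and from the fit without KO eTreg array 1 (purple), with filled points for those that passed the threshold. No orange point and 25 purple points are filled, and the purple intervals are narrower for most genes.

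The 3 KO eTreg arrays accounted for these differences unequally. KO eTreg array 2 lay above all 4 control eTreg arrays for 31 of the 32 genes and array 3 for 30, against 23.9% and 19.1% of all transcript clusters. For 29 of the 32 genes, arrays 2 and 3 were the 2 highest of all 14 arrays, which held for 4.65% of all transcript clusters. KO eTreg array 1 was the lowest of the 7 eTreg arrays for 20 of the 32 genes, against 14.3% of all transcript clusters, and lay above all 4 control eTreg arrays for 3 of them (Fcgr3, Adgre1 and Ms4a6c), against 22.4%. It was above all 7 cTreg arrays for 15 genes, against 14.3% of all transcript clusters. Array medians and background probe medians of the KO eTreg arrays, 8.85, 8.83 and 8.82 and 6.13, 6.06 and 6.12, lay within the range of the other arrays.

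In cTregs none of the 32 genes passed between the genotypes by limma, at the study's threshold or at an unadjusted P below 0.05, where the study's threshold was met by 0.194% of all transcript clusters in the higher and 0.383% in the lower direction. Averaged over the genes, each KO cTreg array lay above each control cTreg array, at 8.17 to 8.32 against 8.02 to 8.16. The mean was higher in the arrays labelled KO for 26 genes and lower for 6, with a median difference of 0.17 (0.02 over all transcript clusters). The smallest unadjusted P, Cybb at 0.093, went with a difference of 0.65 (95% interval -0.12 to 1.43), and the KO cTreg arrays lay wholly above the control cTreg arrays for 2 of the 32 genes (Adgre1 and Tyrobp), against 2.7% of all transcript clusters. For Adgre1 the lowest KO and the highest control cTreg array both read 8.33 to 2 decimals. Adgre1 differed by 0.22 and Lyz2 by 0.55.

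Whether the genotype difference was larger in eTregs than in cTregs was tested as the difference of both. It was above 0 for 30 of the 32 genes, with a median of 0.73 (-0.03 over all transcript clusters), and none passed by limma. At the study's threshold 5 of the 32 were higher (Fcgr3, Timd4, Adgre1, Apoe and C1qc) and none lower, against 1.82% and 1.23% of all transcript clusters. The same 5 were all that had an unadjusted P below 0.05. Fcgr3 had the smallest P, with a difference of 1.45 (SE 0.47, adjusted P 0.736), followed by Timd4 at 1.40 (adjusted P 0.789) and Adgre1 at 0.71 (adjusted P 0.789). C1qa, C1qb and C1qc were at 1.02, 0.73 and 1.12 (adjusted P 0.876, 0.866 and 0.813). The exceptions were Cybb at -0.61 and Axl at -0.02. Without KO eTreg array 1, 19 of the 32 passed (0.887% of all transcript clusters called higher) and the median was 1.44. The study's threshold was then met by 25 (3.95% of all transcript clusters in this direction). Without KO eTreg array 2 (1.65%) or array 3 (1.94%) only 1 met it.

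Other macrophage genes, 28 in a second list, were counted in the same way. Of all transcript clusters, 2.14% were called higher from cTregs to eTregs in controls and 2.02% in the arrays labelled KO. In controls 3 of 28 rose from cTregs to eTregs, the inhibitory receptor gene Lilrb4a by 2.34 (adjusted P 1.36e-05), the pore-forming protein gene Mpeg1 by 1.94 (adjusted P 0.00719) and Pld4 by 1.41 (adjusted P 0.0199), and Tlr7 fell by 1.1 (adjusted P 0.0195). In the arrays labelled KO 9 of 28 rose and none fell. Besides Lilrb4a (2.42), Mpeg1 (3.00) and Pld4 (2.18), they included Cfp, Clec12a, Itgax, Nr1h3 and Tlr4. On the KO cTreg arrays Clec12a read 5.72 to 5.79 and Tlr4 6.19 to 6.35, below or near the background medians of 6.00 to 6.30. In controls 10 of the 28, 9 of them higher, were called without KO eTreg array 1 (2.8% of all transcript clusters called higher). Without control cTreg array 2 it was 2 (1.81%). In the arrays labelled KO 17 were called without KO eTreg array 1 (4.48%). It was 5 without KO eTreg array 2 (1.0%) or 3 (0.91%) or KO cTreg array 1 (1.13%). Of the calls in controls, that of Pld4 was lost without control cTreg array 1, 2 or 4 or control eTreg array 2 (adjusted P 0.0518 to 0.0747) and that of Tlr7 without control cTreg array 2 or control eTreg array 1 or 3 (adjusted P 0.0675 to 0.0784). Between KO and control eTregs none of the 28 passed by limma, and 12 met the study's threshold (1.9% of all transcript clusters in this direction). They were the same 12 that had an unadjusted P below 0.05. Without KO eTreg array 1, 13 passed (1.77% of all transcript clusters called higher). The mean of this list was 8.21 to 8.33 in control cTregs, 8.25 to 8.40 in KO cTregs, 8.70 to 8.93 in control eTregs and 8.65 to 9.78 in KO eTregs.

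Markers of further cell types were read on the same arrays. The mean of 10 dendritic cell genes was 8.55 to 8.63 in control eTregs and 8.65 to 9.34 in KO eTregs. Of the 10, 1 was called higher in KO than in control eTregs, against 0.0721% of all transcript clusters. It was Siglech of plasmacytoid dendritic cells, which differed by 1.78 (limma adjusted P 0.000483). Siglech read 9.78, 10.79 and 10.65 on KO eTreg arrays 1, 2 and 3 against 8.37 to 8.86 in control eTregs, so array 1 also lay above the controls. The mean of 9 CD8 T cell and NK cell genes was 8.42 to 8.82 in control and 8.73 to 9.26 in KO eTregs, and none of the 9 passed between them. Means of 10 B cell genes were 8.59 to 8.79 and 8.63 to 8.87. Neutrophil (7.11 to 7.41 against 7.16 to 7.33), erythroid (7.94 to 8.26 against 7.93 to 8.12), platelet (9.10 to 9.37 against 9.09 to 9.28) and stroma with endothelium genes (8.04 to 8.33 against 8.08 to 8.31) overlapped between control and KO eTregs. The T cell and Treg list stayed at 12.25 to 12.41 in control and 12.29 to 12.34 in KO eTregs. The sort gated on CD4 and on the Foxp3 reporter, and the part of cells other than Tregs in the values of the 32 genes was not tested.

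**Figure D5:**
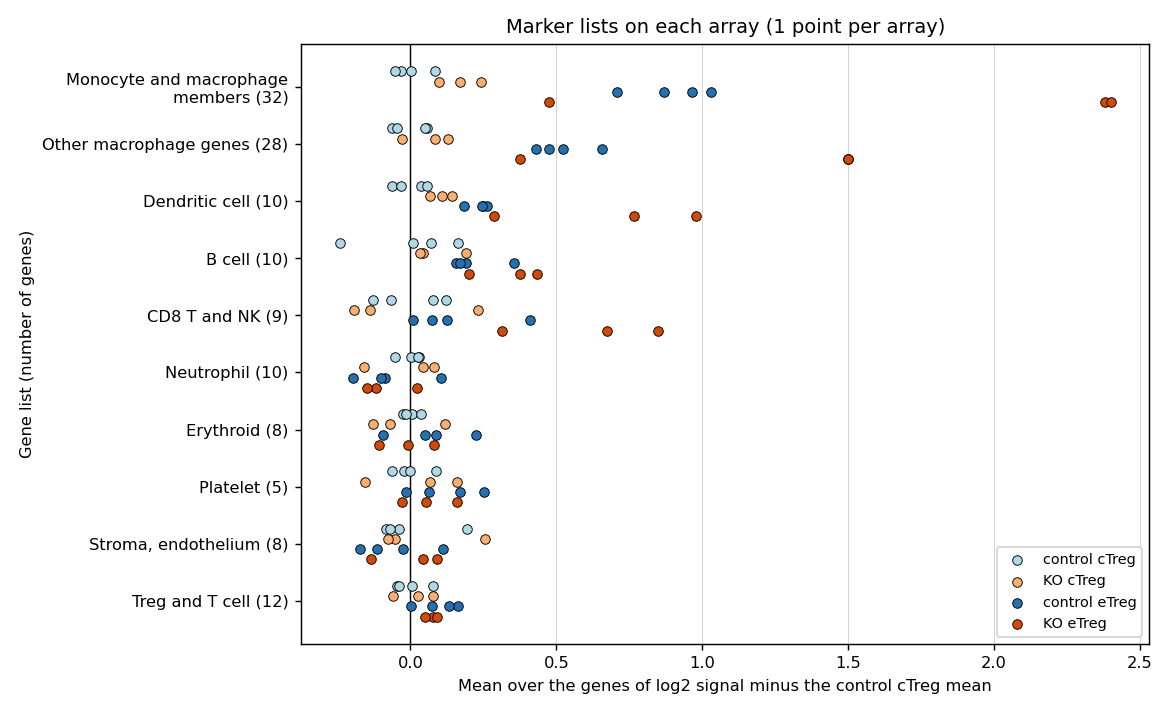
Mean over the genes of each list of log2 signal minus the control cTreg mean (horizontal axis), with 1 point per array coloured by group. The points of KO eTreg arrays 2 and 3 stand far to the right in the macrophage lists and less far in the dendritic and the CD8 T and NK lists, and the neutrophil, erythroid, platelet, stroma and T cell lists stay near 0.

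After group means were removed, the level of single genes followed the mean of the 32 genes over the 14 arrays most closely for Spi1 (r = 0.98), Csf1r (0.96) and Tyrobp (0.96), and least for Marco (0.22), Cd163 (0.24) and Ms4a6c (-0.73). These correlations rest on the KO eTreg arrays, and over the 11 other arrays Cd14, Tyrobp and Spi1 had the highest values (0.88, 0.85 and 0.78). A member is part of the mean it is set against. Outside the 32, the closest of all transcript clusters were the paired immunoglobulin-like receptor gene Pirb (0.98), the C-type lectin gene Clec4b1 (0.97) and complement factor B, Cfb (0.97), followed by Slc9a3r2, H2-DMb1, Lrp1, Igf1, Gm15922, Cfp and Cyb561a3 (0.96 to 0.97). Pirb was at 10.18 to 10.50 in control eTregs and at 10.05, 12.00 and 12.00 in KO eTregs, and Igf1, a growth factor gene, at 9.46 to 9.96 and at 9.80, 11.21 and 11.47. Over the 11 arrays other than KO eTregs, the likeness was 0.86 for Igf1 and 0.63 for Pirb.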

How the data were processed

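RNA of sorted Tregs was measured on 14 arrays in 4 groups taken from the labels. The deposited values are log2 signals that the authors summarised by RMA (robust multi-array average) in Affymetrix Expression Console 1.1, per the submitters' processing notes. It subtracts background, gives the probes of every array 1 common distribution by quantile normalisation, and summarises each probe set by median polish. The genome build behind the probe sets is not given in the sources used here. Of 28846 entries, 22203 with a gene symbol were tested without a filter on signal and 6643 without one were left out. Depth has no counterpart on arrays, and their number limits the precision.

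For every transcript cluster a linear model with a mean for each of the 4 groups was fitted in limma 3.58.1 under R 4.3.3, with lmFit and then eBayes. Degrees of freedom were 10 (residual) and 5.65 (prior). P values are two-sided and adjusted by Benjamini-Hochberg over all 22203. A gene was called at an absolute log2 change of 0.5 or more with an adjusted P below 0.05. The study's methods name the same change with either an adjusted or an unadjusted P below 0.05, depending on the figure or table. What is called the study's threshold here is the form with the unadjusted P. No test was run over the gene lists as sets. The 5 comparisons were eTreg against cTreg within each genotype, KO against control within each subset, and the difference of the last ones. The procedure was tested on simulated data.

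Members, marker lists and tests were chosen with earlier results of these data known. Values per array are given for the 6 members with the largest change in each subset comparison, for every member called in the other comparisons or else the 3 with the smallest P, and for the C1q genes. Ms4a6c was added after its values were seen. The counts of the second macrophage list include 1 gene that is not reported here. Other scalings, an intensity trend, array weights, a filter at the median signal, fits of the compared groups alone, a replicate block and fits without each array were tried.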

Additional observations from a re-analysis of the deposited data

Results flagged for a closer look

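In the control groups, 66 sets of 4 arrays were examined for 1 array far from the other 3, and 5 stood out, where chance flags about 5% of sets. C1qa was low on control cTreg array 1, at 7.76 against 8.30 to 8.39 on the others. Further values were high on control eTreg array 2. C1qa read 10.32 there against 9.66 to 9.74, Mertk 8.69 against 8.00 to 8.10, and Lyz2 10.26 against 8.98 to 9.14. C1qb was high on control eTreg array 1, at 10.05 against 9.38 to 9.42. The groups labelled KO hold 3 arrays each and could not be examined this way.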

How the results depend on the processing

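For the genes chosen by rule to be given by array, no difference changed direction under an alternative in the comparison that chose them or, for C1q, in the subset and eTreg comparisons, and of these recomputed values 657 stayed on the same side of the threshold, 35 moved past it and 34 fell short of it. Without a single array, genes called ranged from 3 to 19 for eTregs against cTregs in controls, from 3 to 28 in the arrays labelled KO, from 0 to 25 for KO against control eTregs and from 0 to 19 for the difference of genotype effects, each highest without KO eTreg array 1. Median changes ranged from 0.618 to 0.788, 1.24 to 2.3, 0.562 to 1.59 and 0.414 to 1.44 in the same order. Array weights, which gave KO eTreg array 1 a weight of 0.389, called 10 genes in controls, 27 in the arrays labelled KO and 21 between KO and control eTregs, and put the median difference of genotype effects at 1.21. Fits of only the compared groups called 18 in controls and 1 in the arrays labelled KO. Residual degrees of freedom are fewer in both than in the main fit. The median SD of the 32 genes was 0.182 and 0.238 in control cTregs and eTregs, and 0.215 and 1.17 in KO cTregs and eTregs. What each contributed was not tested. The filter at the median signal left 16 of the 32 genes, of which 10 were called in the arrays labelled KO. Subtracting array medians or 75th percentiles, quantile normalization, an intensity trend and averaging rows left each count within 1.5 times of its main value. In cTregs no alternative called a gene.

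Replicate numbers are shared between subsets, but deviations from the group means correlated by 0.0443 to 0.303 within a number, not above 0.1 for every number, and the labels tie no number to a mouse, so pairing was not taken as given. With the number within genotype as a replicate block, 5 genes were called in controls and 18 in the arrays labelled KO, and as a random effect (correlation 0.238) 5 and 21, with 0 for KO against control eTregs. C1qa was the gene added in controls by each (adjusted P 0.04 and 0.0399). Of 7 numbers, 6 correlated best with their own. Arrays of 3 to a group leave wide intervals.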
